A study of Macaca nemestrina with 58 samples.

Results

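The ligands and receptors of the epidermal growth factor (EGF) family were followed in vaginal pinch biopsies. These came from 15 animals of the pig-tailed macaque, Macaca nemestrina, and were measured on arrays made for a related species, the rhesus macaque. The 7 genes were the ligands AREG, EREG, HBEGF and TGFA and the receptors EGFR, ERBB2 and ERBB3. Their probe sets were all those whose only gene symbol in the array annotation is 1 of these 7. This gave 12 probe sets for 6 genes, of 52865 on the array and 11199 named genes tested. No probe set carried EREG as its only symbol, so EREG was not analysed here. A filter on low values kept 31624 probe sets and 11 of the 12 for member genes. The probe set it removed was a dim one for HBEGF (mean log2 signal 5.17). Each gene is described by its kept probe set with the highest mean signal, and the others are given beside it. Counts of members below are counts of the 6 genes by that probe set.

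The study compared untreated biopsies taken in 4 phases of the menstrual cycle with biopsies taken after a hormonal contraceptive. DMPA, depot medroxyprogesterone acetate, is an injectable progestin, and it was given to 9 animals at doses labelled 0.5, 1.5 and 2.5 (3 animals each, no unit in the labels). LNG is the labels' name for the arm that the study's design text describes as a combined oral contraceptive, given to 6 animals, 3 labelled High and 3 labelled Low. The 28 baseline samples came from the early (10) and late (5) follicular phase, before ovulation, and from the early (4) and late (9) luteal phase, after it. There were 8 samples at DMPA time 1D4, 9 at DMPA time 2D2, 6 at LNG time 5th and 6 at LNG time 7th. The design text places treated biopsies 2 weeks after the second DMPA injection and, in the other arm, 5 weeks after dosing began. Which of the labelled times these are is not spelled out. No genotype, strain or age was given, and no untreated animal was followed over the same times. The drugs' part in a change therefore cannot be told apart from that of time or of earlier biopsies. Treated samples were compared with the untreated biopsies of the same animals. The p-values measure the spread within animals, estimated together over all 57 samples of both arms. Samples of either arm therefore bear on tests in the other. A test passed at an adjusted p under 0.05, computed with limma over all 31624 probe sets. Errors are standard errors of the fit unless SD is named.

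The EGF family works through pairs of receptor molecules. AREG, HBEGF and TGFA are made as membrane proteins, are cut free by ADAM metalloproteases and then bind EGFR, the receptor they share. HBEGF can also bind ERBB4, another receptor of the family. ERBB2 binds no ligand of its own and serves as the preferred partner of the others, while ERBB3 binds neuregulins and has little kinase activity of its own. In stratified epithelium this system is known for driving keratinocyte growth and migration, with AREG and TGFA acting on the same cells that make them.

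The tissue carried the genes of a stratified squamous epithelium. The mean log2 signal of 18 measured genes of differentiated squamous cells, such as SPRR3, lay between 8.45 and 13.1 in the 28 baseline samples. After treatment it spread lower, from 6.86 to 11.67 at DMPA 2D2, from 7.05 to 12.63 at DMPA 1D4, from 6.71 to 13.05 at LNG 5th and from 6.96 to 12.84 at LNG 7th. The arrays' medians lay between 6.07 and 6.25. The difference between the 3' and 5' control probe sets of GAPDH, which grows as RNA breaks down, was 1.66 ± 0.31 (SD, n = 28) in the baseline samples and 2.43 ± 0.70 (SD, n = 9) at DMPA 2D2. The sample of animal BB4800 at LNG 5th had the highest smooth muscle mean at that time (12.29) and the lowest basal keratinocyte mean (10.25), and the LNG 5th values of AREG and of the receptors are given with and without it.

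TGFA was lower after DMPA. At 2D2 its log2 signal ran from 5.76 through a median of 7.18 to 8.39 in 9 samples, against 6.43, 8.31 and 9.07 (lowest, median, highest) in the 28 baseline samples. The groups overlapped, and 8 of 9 animals were below the mean of their own untreated biopsies. The fitted change was -1.17 ± 0.27 on the log2 scale, a 2.24-fold fall (adjusted p = 0.00213). TGFA was 1 of 6 member genes, and the only one, that passed at 2D2, where 28.1% of all probe sets passed and 12.1% passed as lower, and 1 of 6 members is near those shares. The median change over the 6 members was -0.33, against 0.04 over all probe sets. In bulk tissue, fewer cells of a type and less RNA per cell cannot be told apart. A further TGFA probe set, which tracked the first across the 57 samples (r = 0.95), changed by -1.44 ± 0.32 (adjusted p = 0.00159) and was lower in 9 of 9 animals.

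The size of the TGFA difference varied between the DMPA animals. The largest was in BB0540, dose 2.5, where the log2 signal went from 8.36 in its own baseline to 5.76 at 2D2. BB981 (-1.87, dose 1.5) and BB0499 (-1.71, dose 2.5) followed. PHQ1 (-1.30, dose 2.5), BB405 (-1.17, dose 1.5) and BB108 (-1.16, dose 0.5) came next, and BB521 was at -0.54 (dose 1.5). The others, PPi2 (0.01) and BB770 (-0.09), both at dose 0.5, were near their own baselines. For PPi2 that baseline averages an early follicular biopsy with a squamous list mean of 12.85 and a late luteal one with 8.45. The late luteal sample also had a GAPDH difference of 2.67. Without that sample the fitted TGFA change at 2D2 over all animals was -1.30 (adjusted p = 1.37e-04). The fitted slope on the labelled dose was -0.45 ± 0.31 per unit of the label and did not pass (adjusted p = 0.934). With the GAPDH difference as a covariate that slope was 0.09. By limma 0% of all probe sets passed for that slope, with 1304 at an unadjusted p under 0.05, and 0 of the 6 members were among those.

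At 2D2 differentiated squamous genes were lower and the GAPDH difference was higher, beside the lower TGFA. Of the 18 squamous genes, 16 fell, where 12.1% of all probe sets passed as lower. The median log2 change was -4.18 over the list against 0.05 over all named genes, and the list mean was lower in 8 of 9 animals. At 2D2 the list mean was 11.6 in PPi2, 11.67 in BB770 and 6.86 to 7.65 in the other 7. Its change from the own baseline was 0.94 in PPi2, -1.34 in BB770 and -3.64 to -5.73 in those 7. By change, PPi2 and BB770 lay about as far apart as BB770 and the next animal. The own baseline of PPi2 includes its late luteal sample of low list mean. The relation was taken within the 7, a split set by hand. Within those 7, the change of TGFA and that of the list had r = 0.61 (exact permutation p = 0.117, adjusted over 6 members 0.54) and Spearman's rho = 0.71 (exact permutation p = 0.0881, adjusted 0.471), two-sided. Without the 2 animals farthest from the median r was 0.79, and no member's relation passed. The change of the GAPDH difference was 0.74 ± 0.57 (SD) over the 9 animals, above 0 in 8 of them and largest in BB0540 (1.92), which also had the largest TGFA difference. With that difference as a covariate the TGFA change was -0.15 (adjusted p = 0.886), and 0 of all 31624 probe sets passed at 2D2. Over all alternatives run for this TGFA change the adjusted p lay between 1.37e-04 and 0.886, and the call was kept with each of the 9 animals left out. The part of the squamous genes and of the GAPDH measure in the TGFA result was not tested beyond these values.

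**Figure D1:**
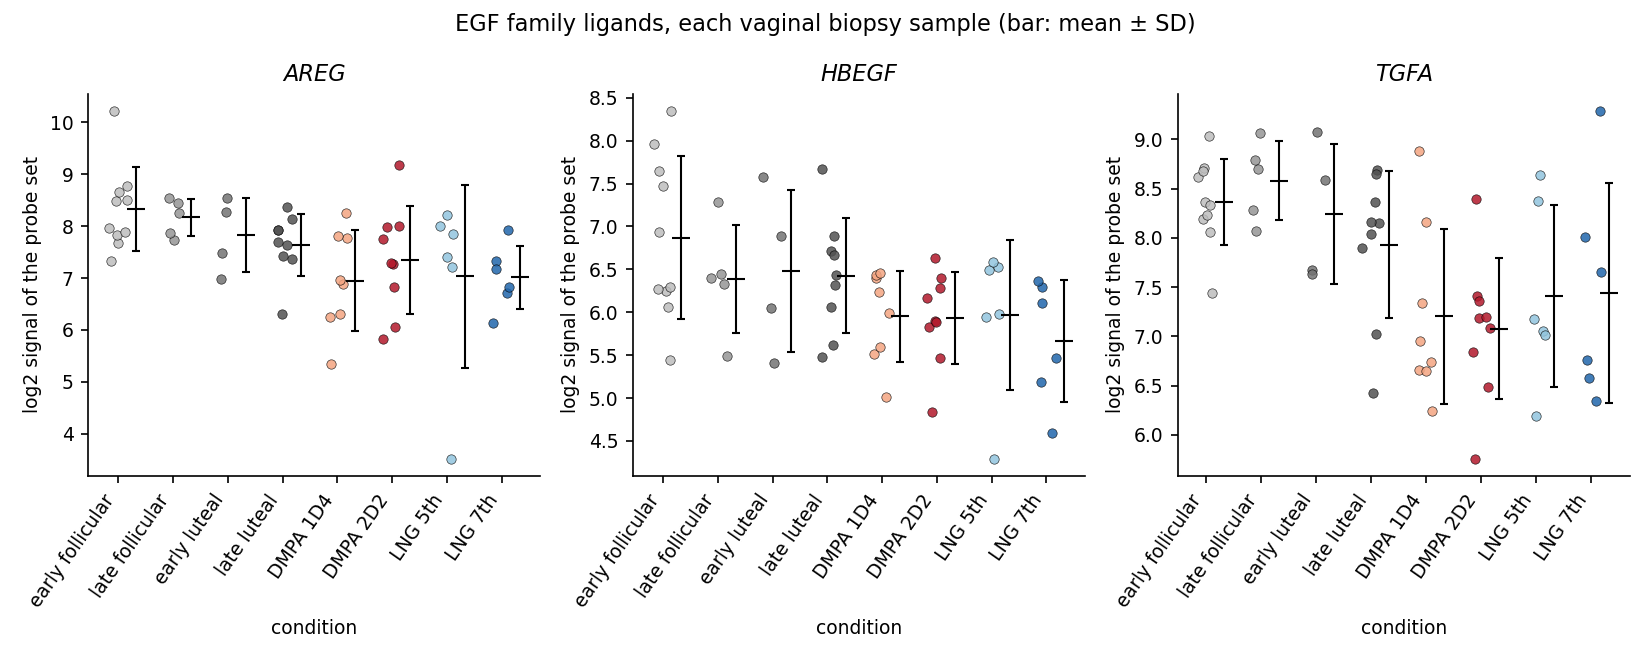
Log2 signal of the probe sets of AREG, HBEGF and TGFA (y axis) in every sample of the 8 conditions (x axis), 1 point per sample, with the mean ± SD beside them. TGFA at DMPA 2D2 (mean 7.08) lies below its mean in every baseline phase (7.93 to 8.58) with overlapping points, and the lowest AREG point (3.51) is 1 sample at LNG 5th.

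At 1D4, the earlier DMPA time, TGFA and AREG were both lower. The TGFA signal ran from 6.24 through a median of 6.85 to 8.88 in 8 samples. In 6 of 8 animals it was below the animal's own baseline, and the exceptions were PPi2 and BB770. The fitted TGFA change was -1.03 ± 0.28, a 2.04-fold fall (adjusted p = 0.0119), and its other probe set changed by -1.20 ± 0.34 (adjusted p = 0.013). AREG, amphiregulin, a ligand of lower affinity for EGFR than EGF itself, ran from 5.35 through 6.92 to 8.25, against 6.30, 7.92 and 10.22 in the baseline samples. Its groups overlapped too, and 6 of 8 animals were lower. The AREG change was -1.08 ± 0.37, a 2.12-fold fall (adjusted p = 0.0335). These were 2 of 6 members, both lower, where 23.2% of all probe sets passed and 11.9% passed as lower.

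Both calls at 1D4 were lost without single animals. AREG no longer passed without BB0499 (-0.99, adjusted p = 0.0934), BB0540 (-1.11, adjusted p = 0.0628), BB405 (-0.998, adjusted p = 0.0756), BB981 (-1.03, adjusted p = 0.075) or PHQ1 (-0.78, adjusted p = 0.164). TGFA no longer passed without BB0499 (-0.89, adjusted p = 0.0562) or BB981 (-0.83, adjusted p = 0.0651). With the GAPDH covariate TGFA was at -0.63 (adjusted p = 0.0566) and AREG at -0.63 (adjusted p = 0.189). Over all alternatives the adjusted p at 1D4 lay between 2.65e-04 and 0.0651 for TGFA and between 0.00292 and 0.189 for AREG. At 1D4 the fibroblast list mean was higher in 7 of 8 animals and the squamous list mean lower in 7 of 8. Of the 18 squamous genes 15 fell, where 11.9% of all probe sets passed as lower. The part of these lists in the TGFA and AREG changes was not tested.

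AREG did not pass at 2D2. Its signal ran from 5.82 through a median of 7.28 to 9.19, and 6 of 9 animals were below their own baseline. BB0499 (-2.18), BB981 (-1.97) and BB405 (-1.92) had the lowest changes. BB770 was higher by 1.10, and BB521 and PPi2 by 0.56 and 0.21. The fitted change was -0.70 ± 0.35, with a 95% confidence interval from -1.41 to 0.01 (adjusted p = 0.129). Its sign turned with the GAPDH covariate, to 0.43 (adjusted p = 0.754). Set directly against 1D4, AREG at 2D2 differed by 0.38 ± 0.42 and TGFA by -0.14 ± 0.32, and neither passed. With the GAPDH covariate these were 1.06 and 0.47, and with array weights TGFA was at 0.10, so the sign for TGFA turned. In that comparison 0% of probe sets passed by limma, with 1655 at an unadjusted p under 0.05, and 0 of the 6 members among those. A difference between the times was not detectable in these 8 and 9 samples.

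HBEGF, heparin-binding EGF-like growth factor, was the third ligand measured. Its signal at 2D2 ran from 4.83 through 5.90 to 6.64, against 5.41, 6.41 and 8.35 in the baseline samples. In 7 of 9 animals it was below the own baseline, the lowest changes being those of BB981 (-1.85), BB405 (-1.47) and BB521 (-1.39), all at dose 1.5. The fitted change was -0.72 ± 0.30 (adjusted p = 0.0612) at 2D2 and -0.68 ± 0.31 (adjusted p = 0.101) at 1D4. At 2D2 the call appeared without BB0540 (-0.87, adjusted p = 0.0463) or without BB108 (-0.83, adjusted p = 0.0388). The 2 arrays of the duplicated late follicular sample differed by 0.85 for this probe set, which is more than its fitted changes after DMPA. The dim HBEGF probe set had little in common with it (r = 0.26 over 57 samples), and its mean change per animal at 2D2 was -0.09 ± 0.31 (SD, n = 9).

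**Figure D2:**
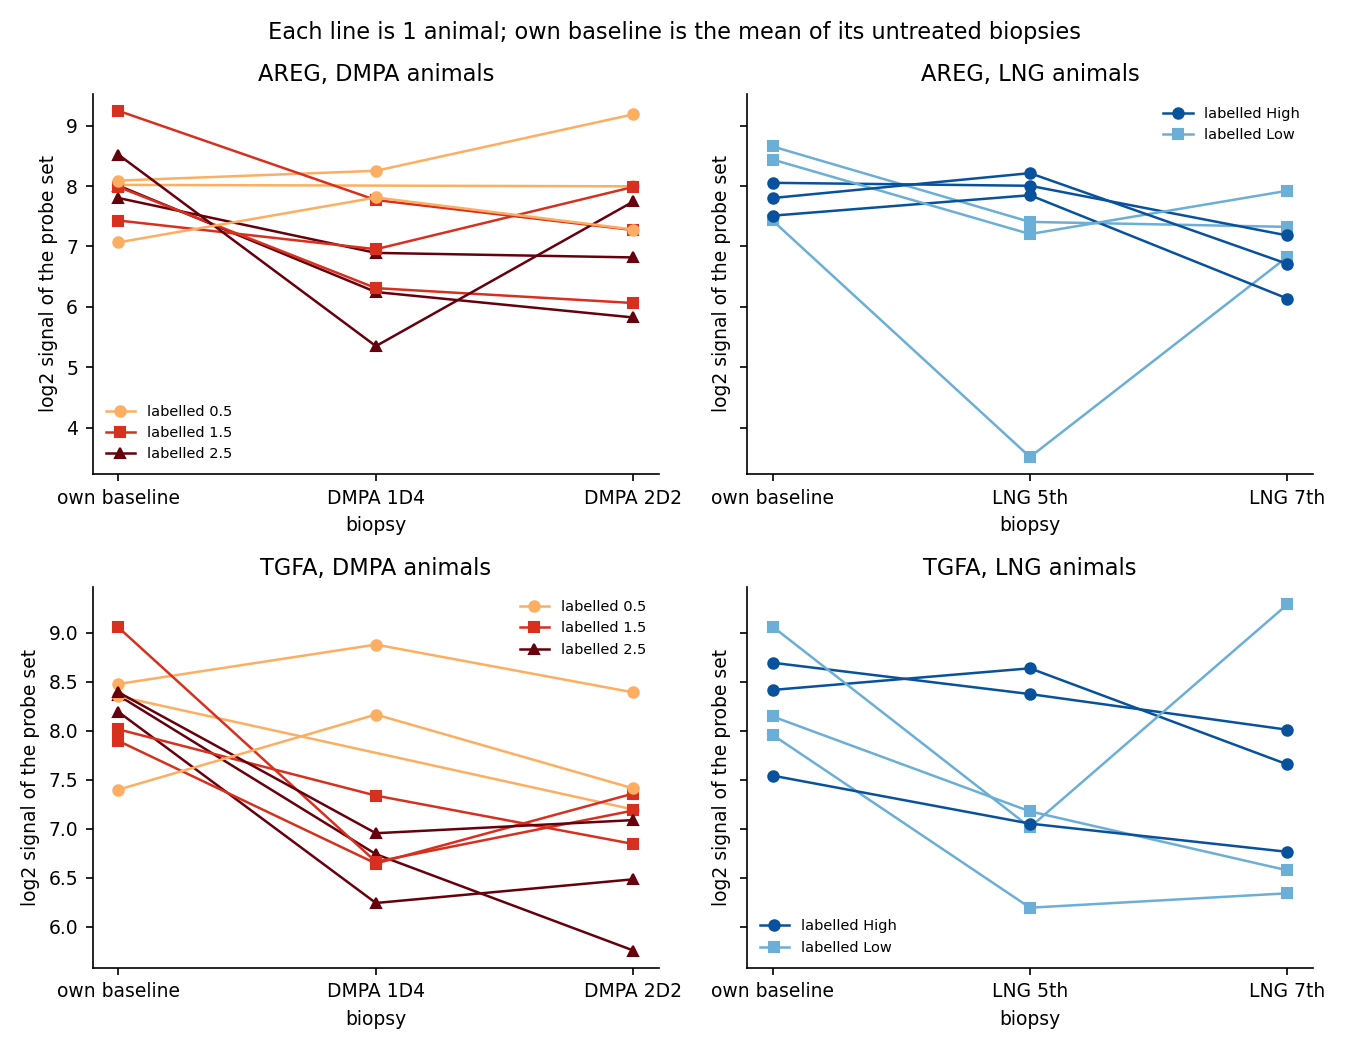
Log2 signal of AREG (top) and TGFA (bottom) in each animal's own baseline and at its treated times (x axis), with 1 line per animal, marked by labelled dose for DMPA and by High or Low for LNG. At DMPA 1D4 the lines that go up are the 2 animals at dose 0.5 sampled then, and the line of BB108 joins its baseline directly to 2D2. The own baseline of PPi2, 1 of those 2, includes the late luteal sample with the lowest squamous list mean of the baseline (8.45).

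No receptor passed after DMPA. EGFR, which the 3 measured ligands bind, ran from 8.80 through a median of 9.27 to 10.17 at 2D2 and from 8.28 through 9.42 to 9.99 in the baseline samples. Its fitted change was 0.20 ± 0.14 (95% confidence interval -0.09 to 0.49, adjusted p = 0.301) at 2D2 and 0.29 ± 0.15 (adjusted p = 0.159) at 1D4. At 1D4 6 of 8 animals were above their own baseline, led by BB405 (0.92) and BB981 (0.85), and PPi2 and BB770 were below it. With array weights EGFR passed at both times, at 0.305 (adjusted p = 0.0433) for 2D2 and at 0.328 (adjusted p = 0.0352) for 1D4. With the animal left out of the model EGFR was at 0.036 (adjusted p = 0.878) and 0.185 (adjusted p = 0.392). At 2D2 5 of 9 animals were above their own baseline, and BB405 (0.94), BB981 (0.82) and PHQ1 (0.59) stood highest. Columnar epithelial genes rose at 2D2 (7 of 11 higher and 1 lower), where 16% of all probe sets passed as higher and 12.1% as lower. The columnar list mean was higher in 9 of 9 animals. Of 5 measured basal keratinocyte genes, 3 rose and 0 fell at 2D2, and their list mean was higher in 6 of 9 animals. The part of the columnar and basal keratinocyte genes in the EGFR values was not tested.

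ERBB2 changed by 0.16 ± 0.11 at 2D2 (adjusted p = 0.287), with a 95% confidence interval from -0.07 to 0.39. Its other probe set was at -0.12 ± 0.11, so the probe sets had estimates of opposite sign and neither passed. ERBB3 changed by 0.05 ± 0.11 (95% confidence interval -0.18 to 0.28, adjusted p = 0.763). Of its other 3 probe sets, 2 were at -0.05 and the dimmest at -0.31 ± 0.15 (adjusted p = 0.105). The dimmest ERBB3 probe set also differed by 1.52 between the 2 arrays of the duplicated sample. ERBB3 at 2D2 had its lowest value, 9.22, in BB0540, the animal with the highest GAPDH difference (3.98). These intervals hold receptor changes up to the bounds given, so the tests do not show equal levels.

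**Figure D3:**
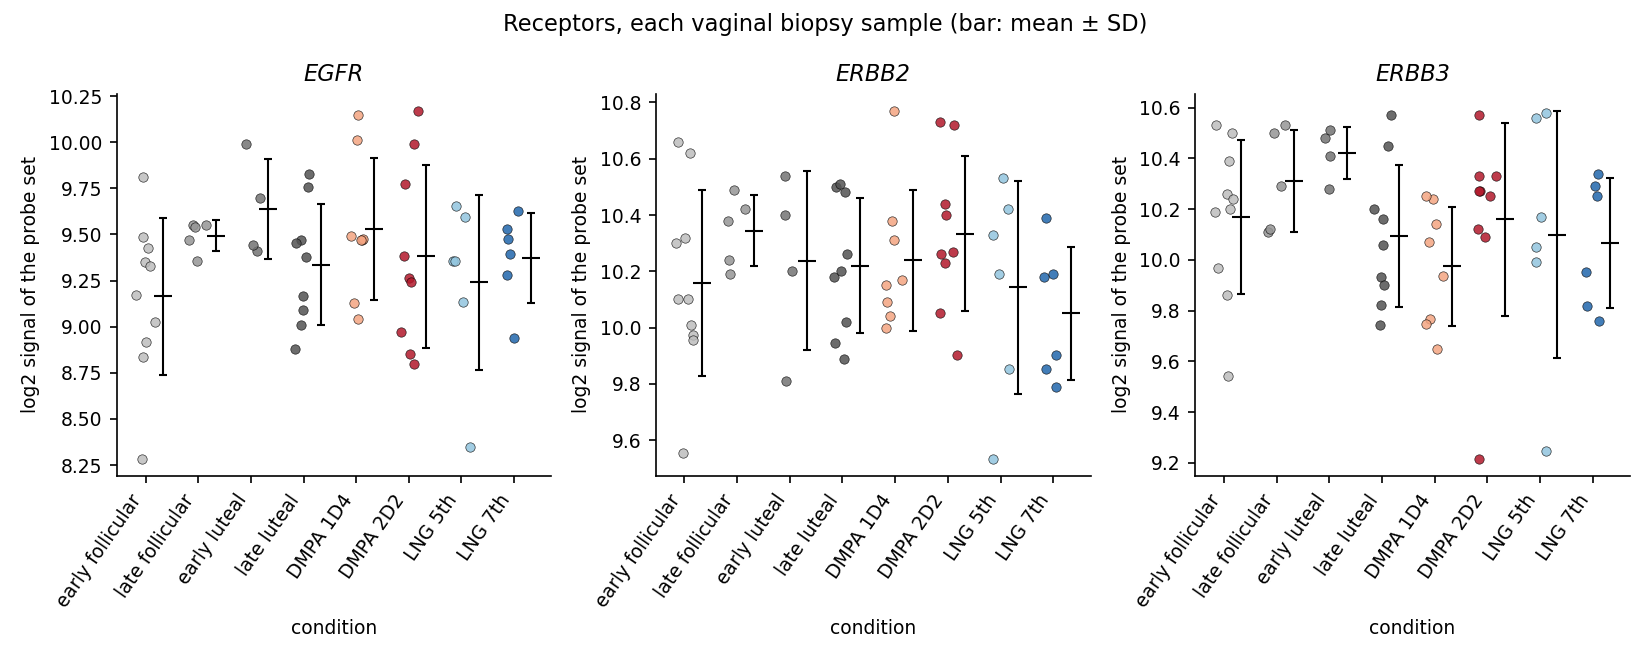
Log2 signal of the probe sets of EGFR, ERBB2 and ERBB3 (y axis) in every sample of the 8 conditions (x axis), 1 point per sample, with the mean ± SD beside them. The condition means of ERBB2 lie between 10.05 and 10.34 and those of ERBB3 between 9.98 and 10.42, and the lowest EGFR point of the treated samples is 8.35 at LNG 5th.

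After LNG no member gene passed, in comparisons where almost nothing passed. By limma 0% of all probe sets passed at LNG 5th, with 6828 at an unadjusted p under 0.05, and 3 of the 6 members were at an unadjusted p under 0.05. At LNG 7th 0.00632% passed, with 7487 at an unadjusted p under 0.05, and 4 of the 6 members were among the latter. All 6 estimates were negative at both times, but at 7th not under every alternative: without the (A-) arrays ERBB2 was at 0.06 and ERBB3 at 0.11, and with the animal left out of the model EGFR was at 0.03. TGFA ran from 6.19 through 7.11 to 8.64 at LNG 5th and from 6.34 through 7.21 to 9.29 at LNG 7th. Its fitted change was -0.89 ± 0.33 (adjusted p = 0.111) at 5th and -0.86 ± 0.33 (adjusted p = 0.118) at 7th, and 5 of 6 animals were below their own baseline at each time. Its other probe set was at -1.53 ± 0.40 (adjusted p = 0.0544) and -1.22 ± 0.40 (adjusted p = 0.0802). At 5th the sample of BB4800 had the largest fall in that probe set, -3.37, to 3.61, against -2.24 to 0.06 in the other animals. In the TGFA probe set that represents the gene, BB4800 was at -1.76. With the GAPDH covariate TGFA was at -0.34 (adjusted p = 0.792) and -0.22 (adjusted p = 0.876). The TGFA probe set that represents the gene passed at 5th without BB4870 (-1.12, adjusted p = 0.0446) and without the array labelled (A-), which is the same animal's (-1.07, adjusted p = 0.0489). What the label (A-) stands for is not given, and 5 of the 12 LNG samples carry it, 4 of them at 7th.

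AREG was lower in 6 of 6 animals at LNG 7th, where it ran from 6.14 through 7.01 to 7.92, but the fit did not pass (-0.97 ± 0.43, adjusted p = 0.167). At LNG 5th it ran from 3.51 through 7.63 to 8.21, and 4 of 6 animals were lower. The value of 3.51 in BB4800 was a change of -3.92 from its own baseline, and the next lowest sample was at 7.21. The fitted AREG change at 5th was -0.95 ± 0.43 (adjusted p = 0.19), and without that sample it was -0.32 (adjusted p = 0.829, in a range of 0.0912 to 0.91 over all alternatives). HBEGF changed by -0.60 ± 0.36 at 5th and -0.90 ± 0.36 at 7th (adjusted p = 0.342 and 0.132). One animal, BB173, had the lowest HBEGF change at both times, -3.33 and -2.43, and without it the fit gave -0.02 at 5th and -0.56 at 7th (adjusted p = 0.985 and 0.329). At 5th the other animals were between -0.59 and 0.22. The squamous list mean was lower in 4 of 6 animals at 5th and in 6 of 6 at 7th, the fibroblast mean was higher in 5 and 6, and the GAPDH difference was higher in 5 and 6. The squamous falls at 7th were uneven. BB269 was at 12.84 with own baselines of 12.62 and 13.07, and BB4800 at 7.25 with 12.69 and 12.44. No squamous gene passed at either time by limma, with list medians of -2.81 and -2.77, and the part of these measures in the LNG values was not tested.

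The receptors after LNG had estimates from -0.18 to -0.36 at 5th and from -0.22 to -0.33 at 7th, with errors of 0.14 to 0.18. EGFR was at -0.36 ± 0.18 at LNG 5th (adjusted p = 0.235), and -0.14 without the sample of BB4800, which had the lowest EGFR value (8.35) and a change of -1.42. Without that sample ERBB2 at 5th went from -0.18 to -0.03 and ERBB3 from -0.30 to -0.11. The change of EGFR after DMPA at 2D2 exceeded that after LNG at 5th by 0.56 ± 0.23 (unadjusted p = 0.0195, adjusted p = 0.533), and 0% of probe sets passed for that difference of changes by limma, with 2688 at an unadjusted p under 0.05. Without the sample of BB4800 the EGFR difference was 0.34 (adjusted p = 0.897), and it was 0.14 with the animal left out of the model (adjusted p = 0.733). For TGFA the difference of changes was -0.27 ± 0.43 (95% confidence interval -1.14 to 0.59) and for AREG 0.25 ± 0.56 (-0.88 to 1.38). Both signs turned under alternatives, AREG to -0.38 without the sample of BB4800 and -0.20 with array weights, and TGFA to 0.18 with the GAPDH covariate. No member differed between the arms past the threshold. LNG 7th against 5th gave 0% of probe sets passing (946 at an unadjusted p under 0.05), with TGFA at 0.03 ± 0.38 and AREG at -0.01 ± 0.49, values near 0 whose sign varied between alternatives.

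**Figure D4:**
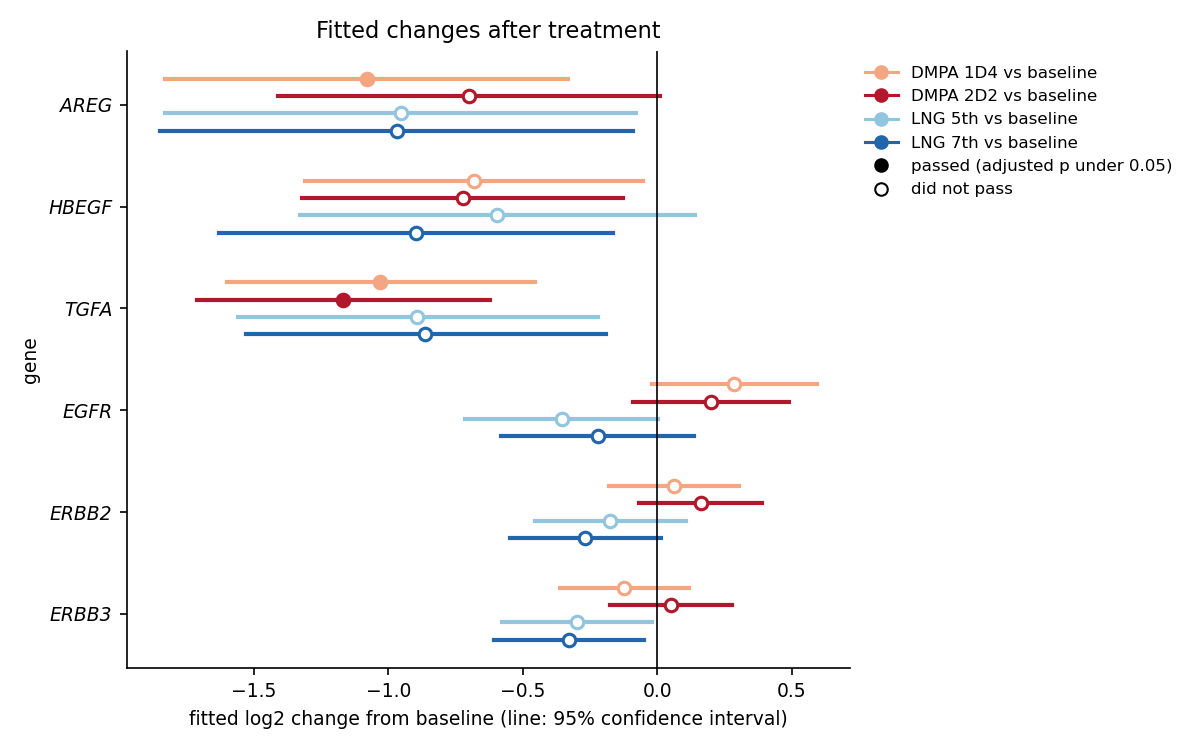
Fitted log2 change from baseline (x axis) of the 6 member genes (y axis) at the 4 treated times, as points with 95% confidence intervals, filled where the adjusted p is under 0.05. The filled points are TGFA at both DMPA times and AREG at DMPA 1D4, and all 12 LNG points of this fit lie below 0, though at LNG 7th those of EGFR, ERBB2 and ERBB3 turned above 0 under an alternative.

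The AREG changes of the High and Low animals of the LNG arm at 5th are given as a description. The changes of the 3 High animals were 0.41 (BB967), -0.05 (BB269) and 0.34 (BB4870), and those of the 3 Low animals were -1.25 (BB173), -1.23 (BB537) and -3.92 (BB4800). The groups did not overlap, which held for 2 of the 6 members (AREG and TGFA) and for 20.2% of all probe sets. By limma 0% of all probe sets passed in this comparison, and 4690 had an unadjusted p under 0.05. The fitted difference was 2.52 ± 0.72 (unadjusted p = 0.0011, adjusted p = 0.122). It was 3.11 without BB173 (adjusted p = 0.0416) and 1.57 without the sample of BB4800 (adjusted p = 0.803), and the adjusted p ran from 0.0416 to 0.839 over all alternatives. At LNG 7th the High animals were at -1.09, -0.87 and -1.37 and the Low animals at -1.33, -0.52 and -0.60, with overlap, and that time was not tested. The TGFA difference at 5th was 1.34 ± 0.59 (adjusted p = 0.281), 0.89 without BB537 and 0.35 with the GAPDH covariate, which took the AREG difference to 1.56. The squamous list mean at 5th was 8.91, 12.9 and 13.05 in the High animals and 6.97, 8.55 and 6.71 in the Low animals, and its part in these values was not tested.

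Across the natural cycle no member passed. TGFA ran from 7.44 through a median of 8.35 to 9.03 in the 10 early follicular samples. The 5 late follicular values were 9.06, 8.70, 8.28, 8.79 and 8.07, and the 4 early luteal values were 7.68, 7.63, 9.07 and 8.58. The 9 late luteal samples ran from 6.43 through 8.15 to 8.68. AREG ran from 7.33 through 8.22 to 10.22 in the early follicular samples. It had late follicular values of 8.44, 7.73, 7.87, 8.26 and 8.54 and early luteal values of 8.54, 6.99, 8.27 and 7.49, and its late luteal samples ran from 6.30 through 7.69 to 8.37. All phases overlapped for both ligands.

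In the fit, the luteal phases differed from the follicular phases by -0.17 ± 0.27 for TGFA and -0.45 ± 0.36 for AREG (adjusted p = 0.744 and 0.471), with 1.71% of all probe sets passing. TGFA was at 0.13 and AREG at -0.12 with the GAPDH covariate, and without BB4800 TGFA was at -0.0065. Of 12 animals with both a follicular and a luteal biopsy, 8 had lower AREG and 8 had lower TGFA in the luteal one. Late luteal against early follicular gave -0.67 ± 0.31 for TGFA (adjusted p = 0.126) and -0.81 ± 0.41 for AREG (adjusted p = 0.169), with 13% of probe sets passing. With the GAPDH covariate these were -0.21 and -0.30, and without the late luteal sample of PPi2 TGFA was at -0.42. Among the 6 animals that had both of these phases TGFA was lower in 4 and AREG in 3. Neighbouring phases gave 0% of probe sets passing by limma in each of the 3 comparisons, with 1315, 1753 and 3548 at an unadjusted p under 0.05, and 0 of the 6 members at that level. Among their other probe sets, the dimmest of ERBB3 was at 0.53 for late against early follicular (unadjusted p = 0.0203) and the other one of TGFA at -1.12 for late against early luteal (unadjusted p = 0.0378). EGFR had its highest mean in the early luteal samples, 9.64 ± 0.27 (SD, n = 4), and its lowest in the early follicular ones, 9.16 ± 0.42 (SD, n = 10).

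TGFA at 2D2 was lower than in either part of the cycle. Against the follicular phases it fell by 1.31 ± 0.30 on the log2 scale (adjusted p = 9.94e-04, 40.2% of probe sets passing), and against the luteal phases by 1.14 ± 0.31 (adjusted p = 0.015, 10.6% passing). In each case TGFA was the 1 member gene of 6 that passed. Both calls were lost with the GAPDH covariate, with TGFA at -0.17 (adjusted p = 0.813) against the follicular and -0.30 (adjusted p = 0.708) against the luteal phases. The dimmest ERBB3 probe set also passed against the follicular phases (-0.46 ± 0.17, adjusted p = 0.0254), while the ERBB3 probe set that represents the gene was at 0.03 ± 0.13. The luteal call for TGFA was lost without BB0540 (-0.96, adjusted p = 0.0633), BB405 (-1.09, adjusted p = 0.0519) or BB981 (-1.03, adjusted p = 0.064), and with the animal left out of the model. AREG against the follicular phases was at -0.93 ± 0.40 (adjusted p = 0.0628) and at 0.32 with the GAPDH covariate, a turned sign. It passed without BB770 (-1.24, adjusted p = 0.0237), without the sample of BB4800 at LNG 5th (-0.89, adjusted p = 0.0326) and without the late luteal sample of PPi2 (-0.97, adjusted p = 0.0482).

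Ordered by their means, the conditions formed a run in which no neighbours differed by more than the larger of their SDs, for any of the 6 genes. Sorting itself puts close means side by side, and the pairing by animal was not used. The order is therefore a description and not a test of whether conditions differ. For TGFA the order was late follicular 8.58 ± 0.40, early follicular 8.37 ± 0.44, early luteal 8.24 ± 0.71, late luteal 7.93 ± 0.75, LNG 7th 7.44 ± 1.11, LNG 5th 7.41 ± 0.92, DMPA 1D4 7.20 ± 0.89 and DMPA 2D2 7.08 ± 0.72 (SD). The 4 untreated phases held the top of that order. AREG ran from 8.33 ± 0.81 in the early follicular samples to 6.95 ± 0.97 at DMPA 1D4, again with the 4 untreated phases highest. HBEGF ran from 6.87 ± 0.95 in the early follicular samples to 5.67 ± 0.71 at LNG 7th, also with the 4 untreated phases highest. For EGFR, ERBB2 and ERBB3 treated and untreated conditions were mixed in the order.

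**Figure D5:**
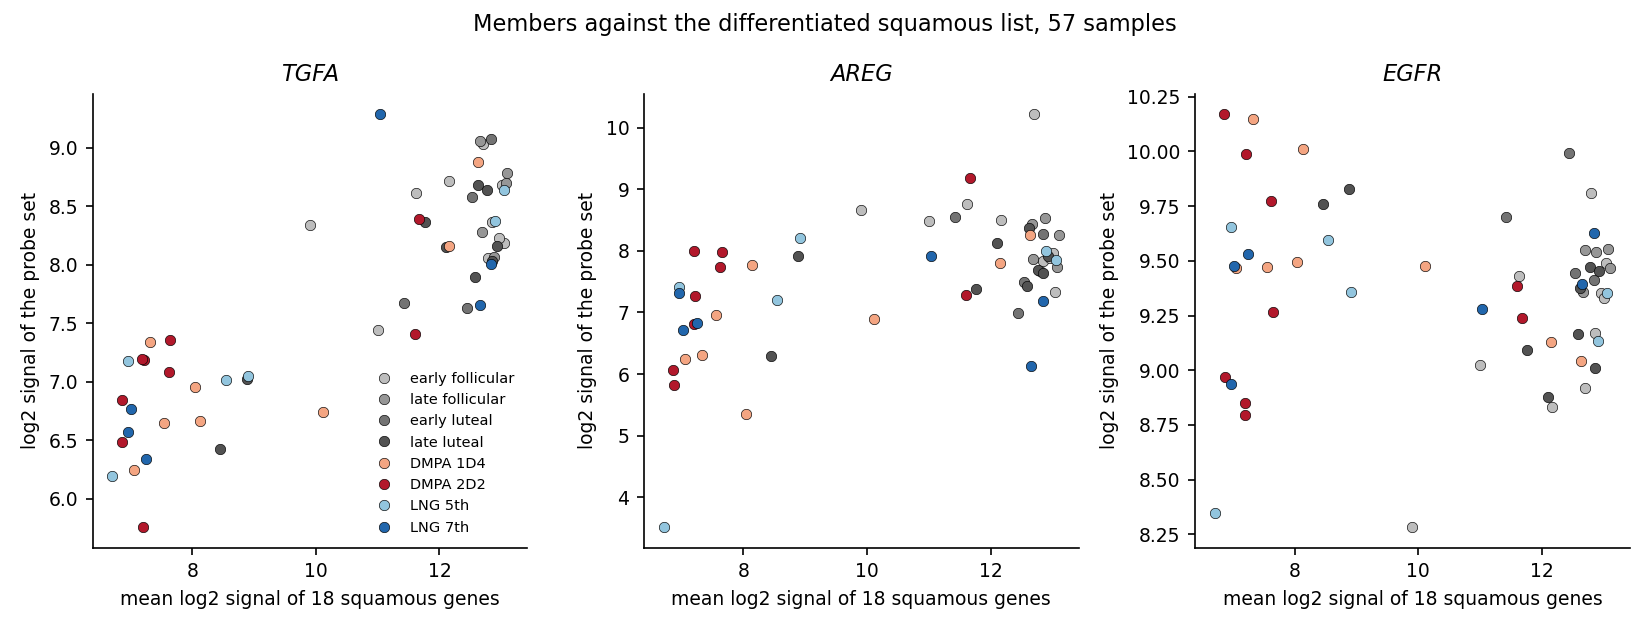
Log2 signal of TGFA, AREG and EGFR (y axis) against the mean log2 signal of the 18 differentiated squamous genes (x axis) in 57 samples, coloured by condition. TGFA lies between 5.76 and 7.36 in the 7 DMPA 2D2 samples at the left and at 7.41 and 8.39 in the others of that time. EGFR lies between 8.80 and 10.17 in the same 7 samples.

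Other genes of the pathway were read from lists. With the GAPDH covariate 0 of all 31624 probe sets passed at 2D2, so no 2D2 call of these lists was kept under it. At 1D4 1631 passed with it, and which listed genes were among them is not given here. The part of RNA quality and of cell make-up in the calls of these lists was not tested. Of 8 further ligands and receptors of the family, 4 were measured (BTC, NRG1, NRG2 and NRG4), and 0 passed by limma in either DMPA comparison. The neuregulin NRG1, a ligand of ERBB3, was at -0.44 ± 0.24 at 2D2 (adjusted p = 0.166). Of 8 measured genes of ligand shedding, 1 rose and 2 fell at 2D2, with a list median of -0.02. Of all probe sets, 16% passed as higher there and 12.1% as lower. ADAM10, a protease that cuts several EGFR ligands free, rose by 0.26 ± 0.09 (adjusted p = 0.0376). RHBDF2, an inactive rhomboid protein that carries the sheddase ADAM17 to the cell surface, fell by 0.81 ± 0.22 (adjusted p = 0.00787). The metalloprotease ADAM15 fell by 0.73 ± 0.15 (adjusted p = 7.18e-04). At 1D4 2 of the 8 rose and 2 fell, where 11.3% of all probe sets passed as higher and 11.9% as lower, and RHBDF2 (-0.91 ± 0.24), ADAM15 (-0.70 ± 0.16) and the sheddase ADAM9 (0.49 ± 0.15) passed with adjusted p of 0.00869, 0.00486 and 0.0194.

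Feedback inhibitors of EGFR signalling passed in both directions. Of 13 measured, 6 rose and 2 fell at 2D2, with a median of 0.27, where 16% of all probe sets passed as higher and 12.1% as lower. LRIG1, a membrane protein that lowers the amount of EGFR, rose by 0.89 ± 0.18 (adjusted p = 8.69e-04). CBLB, a ubiquitin ligase that marks activated receptors for destruction, rose by 0.84 ± 0.19 (adjusted p = 0.00169). DUSP5, a nuclear phosphatase of ERK that ERK itself induces, fell by 2.34 ± 0.43 (adjusted p = 2.98e-04). At 1D4, 5 of the 13 rose and 2 fell, where 11.3% of all probe sets passed as higher and 11.9% as lower. DUSP5 fell by 2.26 ± 0.45 and CBLC by 0.79 ± 0.18 (adjusted p = 0.00333 and 0.00474), while CBLB rose by 0.80 ± 0.20 (adjusted p = 0.00723).

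Of 20 measured adaptors and kinases downstream, 6 rose and 3 fell at 2D2 (median 0.08), and 3 rose and 5 fell at 1D4. Of all probe sets, 16% passed as higher and 12.1% as lower at 2D2, and 11.3% and 11.9% at 1D4. HRAS, a small GTPase, fell by 0.74 ± 0.17 at 2D2 and AKT2, a kinase of the PI3K branch, by 0.24 ± 0.06 (adjusted p = 0.00217 and 0.003). ARAF, a kinase between RAS and MEK, rose by 0.39 ± 0.09 (adjusted p = 0.00186). At 1D4 AKT2 fell by 0.27 ± 0.06, HRAS fell by 0.61 ± 0.18 and NRAS rose by 0.22 ± 0.07 (adjusted p = 0.00512, 0.016 and 0.0205). Of 8 measured genes that ERK signalling is known to induce, 1 rose and 1 fell at 2D2. The shares of all probe sets given above for 2D2 and 1D4 stand beside these counts too. PLAU, the urokinase gene, rose by 0.67 ± 0.19 (adjusted p = 0.0102) and CCND1, cyclin D1, fell by 0.43 ± 0.17 (adjusted p = 0.0494). At 1D4 0 rose and 2 fell, FOS by 1.11 ± 0.37 and IER2 by 0.44 ± 0.14 (adjusted p = 0.0294 and 0.0202). FOS at 2D2 was at 0.75 ± 0.35 (adjusted p = 0.104), of opposite sign. Of 14 measured cell division genes, 7 fell at 2D2 and 11 at 1D4 and 0 rose, where 12.1% and 11.9% of all probe sets passed as lower. In LNG 5th, LNG 7th and luteal against follicular 0 genes of these 5 pathway lists passed by limma, beside 6828, 7487 and 6890 probe sets at an unadjusted p under 0.05. In late luteal against early follicular, where 13% of all probe sets passed, 1 shedding gene rose and 2 fell of 8, 1 feedback inhibitor rose of 13, and 3 adaptors or kinases rose and 1 fell of 20.

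Over the 57 samples, the genes whose log2 values were most like those of each member were named as a description, with no test. The samples share animals, and treatment and squamous gene levels vary across them. Those most like TGFA were KCNJ13 (r = 0.923), EPHA2 (0.907) and TRIM16 (0.905). For AREG they were SLC25A5 (0.839), KIF1B (0.825) and P2RY2 (0.824), and for HBEGF EHD1, CDKN1A and TMEM165 with r from 0.639 to 0.658. EGFR was most like LARGE2, THSD4 and PTPRF (0.648 to 0.705), ERBB2 most like PLLP, PGAP3 and POR (0.707 to 0.746) and ERBB3 most like CTNND1, TNFRSF21 and KLF5 (0.708 to 0.733). Among the members themselves, AREG and TGFA had r = 0.66 and ERBB2 and ERBB3 had r = 0.55. TGFA and EGFR, ligand and receptor, had r = -0.13.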

How the data were processed

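The deposited values are log2 signals per probe set, 1 column per Affymetrix rhesus macaque array (58 arrays, values from 1.37 to 14.57). Total RNA was amplified and biotin-labelled, per the labels' protocols. The tools affy and Partek are named in the submitters' processing notes, and how values were normalized is not given there. The array labelled (dup) was averaged with its partner, which left 57 samples. Control probe sets (158) were left out, as were probe sets under the 40th percentile of the mean (log2 5.53). Gene names came from the platform annotation, where 24969 probe sets have 1 symbol, 361 several and 27535 none. Genome positions and sequences were not used here.

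The model was limma's (version 3.58.1, under R 4.3.3) with the labels' animal as a fixed block, which pairs each treated biopsy with untreated ones of the same animal. Its p-values were adjusted by Benjamini-Hochberg over 31624 probe sets. Tested on simulated data, the fit recovered 87% of 200 probe sets changed by 1 on the log2 scale for DMPA 2D2, 80.5% for LNG 5th and 88% for luteal against follicular. The simulated noise was normal, independent between probe sets and equal in spread across samples, and no other probe set was changed. Real biopsies differed in their GAPDH difference and cell type lists, so these shares do not give the power of the real tests. Exact permutation tests used scipy. The members, the gene lists and the tests were chosen with earlier results of these data known. From each pathway list, up to 3 passing genes with the smallest p were named in the 2 DMPA comparisons, and up to 3 genes most like each member by Pearson r. NRG1 at 2D2 and FOS at 2D2 were named after their values were seen. Alternatives covered the filter, median centring, the block, array weights, the GAPDH covariate, 1 probe set per gene, the duplicate, the arm, the phases, the (A-) arrays, other probe sets and each animal left out. The number of arrays limits the precision.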

Additional observations from a re-analysis of the deposited data

Results flagged for a closer look

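In 48 groups of 4 to 10 samples (6 genes, 8 conditions), 5 samples lay farther from the rest of their group than Dixon's 95% critical value allows. Chance gives about 1 such sample in 20 groups. The AREG value of BB4800 at LNG 5th was 3.51, with the next sample at 7.21. At the same time the HBEGF value of BB173 was 4.29, with the next at 5.95. The early follicular AREG value of BB981 was 10.22, the highest of its 10 samples, with the next at 8.77. The late luteal AREG value of PPi2 was 6.30, with the next at 7.38, in the sample with the lowest squamous mean of the baseline (8.45). The ERBB3 value of BB0540 at DMPA 2D2 was 9.22, with the next at 10.09, in the sample with a GAPDH difference of 3.98. What set these samples apart was not tested.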

How the results depend on the processing

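Of 2294 member values recomputed under an alternative, 2117 kept their direction and side of the threshold, 16 no longer passed, 15 newly passed and 146 changed sign, none of the latter passing with either sign. No call turned its direction. The number of member genes called changed in 7 of 16 comparisons. At DMPA 2D2 it was 1, and 2 with the animal as a random block (HBEGF added, -0.68), 3 with array weights (HBEGF and EGFR added) and 0 with the GAPDH covariate. At DMPA 1D4 it was 2, and 0 with the GAPDH covariate, under which 1631 probe sets in all were called. At LNG 5th it was 0, and 1 without the (A-) arrays, where 2937 probe sets in all were called. At LNG 7th it was 0, and 1 with array weights (HBEGF, adjusted p = 0.0451), where 3572 were called. For 2D2 against the follicular phases it was 1, then 3 with the random block, 0 with the GAPDH covariate, and 2 without the sample of BB4800 at LNG 5th or without the late luteal sample of PPi2, alternatives chosen after seeing the data. For 2D2 against the luteal phases it was 1, and 0 with the GAPDH covariate. Leaving the animal out of the model (no replicate block) gave 0 there, with TGFA at -1.01 (adjusted p = 0.0606), and changed no other count of members. At 2D2 the fit without the block gave TGFA at -1.17 (adjusted p = 0.0024). With each animal left out in turn the counts ran from 1 to 2 at 2D2, 0 to 2 at 1D4, 0 to 1 at LNG 5th, 1 to 2 against the follicular phases, 0 to 1 against the luteal phases and 0 to 1 for LNG High against Low, where leaving out BB173 gave the 1. In the other comparisons they stayed at 0. The causes of these changes were not tested. Arrays give no read depth. The HBEGF probe set, with a mean of 6.23, lies near the filter at 5.53, which limits what its signal can show.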
